A study of Homo sapiens with 12 samples.

Results

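The mitochondrial protein import machinery was examined in established human pancreatic neuroendocrine tumor (pNET) lines, QGP-1 and BON-1, that carried tet-MUC1shRNA. Its members were chosen by symbol and not by any measured value. They are the genes named TIMM (with a number, or TIMMDC1) or TOMM (with a number), without pseudogenes and readthrough genes, together with PMPCA, PMPCB, HSPA9, GRPEL1, DNAJC19, PAM16, MTX1, MTX2, SAMM50 and CHCHD4. This gave 36 genes of the 28008 in the count tables. This construct is a tetracycline-inducible lentiviral hairpin against MUC1, and transduced cells were selected with antibiotics. Whether pools or clones were used is not given in the sources used here. Cells received 0.1% DMSO as vehicle or 500 ng/mL doxycycline (DOX) for 7 days, with 3 RNA-seq libraries in each of the 4 groups. The lines grew in different culture media. No library with DOX and a control hairpin was analysed here, so the effects of the hairpin and of DOX itself, an antibiotic known to inhibit mitochondrial translation, cannot be told apart.

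Nearly all mitochondrial proteins are made in the cytosol and imported. The TOM complex, with the channel TOMM40, is the common entry gate in the outer membrane. Behind it the pathways divide. The TIM23 translocase and its HSPA9-driven motor move proteins with a presequence into the matrix, where the PMPCA/PMPCB peptidase removes the presequence. Small TIM chaperones guide hydrophobic proteins through the intermembrane space to the TIM22 translocase, which inserts metabolite carriers into the inner membrane, or to the SAM complex, which inserts barrel proteins into the outer membrane. CHCHD4, also called MIA40, traps small cysteine-rich proteins in the intermembrane space by oxidizing them.

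MUC1, the target of the hairpin, was at 7.37, 5.95 and 5.79 CPM in the 3 QGP-1 vehicle libraries and at 0.722, 1.07 and 0.762 with DOX. In BON-1 cells it was at 20.2, 20.1 and 15 with vehicle and at 1.42, 2.6 and 3.93 with DOX. No vehicle library overlapped a DOX library in either line, with log2 fold changes of -2.91 ± 0.23 (SE, adjusted p = 8.24e-07) in QGP-1 and -2.79 ± 0.22, adjusted p = 6.51e-11 in BON-1 cells. CPM are counts scaled to library size, here with the TMM factors of all 12 libraries together. Fold changes and adjusted p-values come from edgeR's quasi-likelihood test over all genes of a comparison, and a gene is called at an adjusted p below 0.05. Cells were cultured in triplicate per the study's methods, so p-values measure the spread between these cultures.

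Depth was 38224144 to 50525926 counts in QGP-1 and 15981954 to 28484324 in BON-1 libraries. The 10 neuroendocrine markers summed to between 4785 and 6298 CPM in QGP-1 and between 8806 and 14361 CPM in BON-1 cells, although NCAM1 had at most 2 counts in any BON-1 library. PTPRC, a leukocyte marker, and CD3E, a T cell marker, had at most 9 counts and 1 count in any library. Other markers moved with DOX, where calls were common among all tested genes. The shares called lower and higher were 18.3% and 17% for BON-1, and 17.7% and 17.3% for QGP-1. In BON-1 cells 3 of 9 tested neuroendocrine markers fell (CHGA, SNAP25 and SYP) and 2 rose (SCG2 and SCG3), with log2 fold changes from -1.46 for CHGA to 0.45 for SCG2. In QGP-1 cells 1 of 10 fell (NCAM1) and 3 rose (CHGB, SCG3 and SCG5). Of 5 epithelial markers, 3 rose in BON-1 cells (KRT8, KRT18 and KRT19) and none was called in QGP-1 cells. The immune and endothelial markers summed to between 24.0 and 26.9 CPM in BON-1 vehicle and between 49.1 and 52.4 CPM in BON-1 DOX libraries, where CD68 rose (1.00 ± 0.097, adjusted p = 4.33e-09), and to at most 2.8 CPM in QGP-1 libraries. Stromal markers summed to at most 11.1 CPM, with LUM higher in BON-1 (1.01 ± 0.18, adjusted p = 6.2e-05) and COL1A1 lower in QGP-1 cells (-1.16 ± 0.29, adjusted p = 0.00727). Of the acinar markers PRSS1 fell in both lines (-1.83 ± 0.17, adjusted p = 4.68e-06 in QGP-1 and -0.75 ± 0.12, adjusted p = 1.67e-05 in BON-1 cells) and CPA1 in BON-1 cells (-1.72 ± 0.59, adjusted p = 0.0233). The RN7SK and RN7SL RNAs took 5.37 to 6.38% of the counts in QGP-1 vehicle and 3.30 to 4.53% in QGP-1 DOX libraries, and 1.35 to 3.77% in BON-1 libraries. The part of these shifts in the results was not tested. In such bulk libraries, a lower level in every cell and a loss from some of the cells cannot be told apart.

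Of the 36 members, 34 were expressed above the filter on low counts and were tested in every comparison. TOMM20L, a germline relative of the receptor TOMM20, had 0 to 13 counts per library. PAM16, a regulator of the import motor, had 0 to 8. In GENCODE v44 the PAM16 gene (chr16:4331549-4355607, minus strand, GRCh38) overlaps the readthrough gene CORO7-PAM16, which was at 0 counts in all 12 libraries. PAM16 shares 22.4% of its exonic bases with that gene, and how the counting program assigned reads in shared exons is not given in the sources used here.

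Per unit of gene length, subunits and receptors of the outer membrane gate were among the most abundant members. Levels of different genes were compared as shares of the members' summed deposited TPM, which removes the scaling of a library. TOMM6, a small subunit that helps assemble the TOM complex, held the largest share. It was 17.7% ± 0.322 (SD, n = 3) in QGP-1 vehicle and 11.5% ± 0.355 in BON-1 vehicle libraries. A same-strand gene covers all exonic bases of TOMM6, and the part of shared reads in its share was not tested. In QGP-1 cells TOMM22, the central receptor, followed with 9.96% ± 0.108. TOMM20, the receptor for presequences, held 7.53% ± 0.288 there, within its spread of HSPA9, the motor chaperone also called mortalin, with 7.49% ± 0.198. In BON-1 cells the order after TOMM6 was TOMM20 with 9.72% ± 0.291, then TOMM5 and TOMM22 with 8.44% ± 0.788 and 8.32% ± 0.401, which differed by less than their spread. TIMM23, the channel of the inner membrane, was also within their spread with 8.01% ± 0.427, against 6.43% ± 0.2997 in QGP-1 cells. Of the tested members the lowest shares were those of TIMM29, a TIM22 subunit, in QGP-1 cells (0.334% ± 0.0461) and of TIMM8A, a small chaperone, in BON-1 cells (0.243% ± 0.0751). By complex, the 10 TOM genes made up 49.6% ± 0.155 of the summed TPM in QGP-1 vehicle, 48.6% ± 1.16 in QGP-1 DOX, 47.4% ± 0.529 in BON-1 vehicle and 48.7% ± 0.726 in BON-1 DOX libraries.

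**Figure D1:**
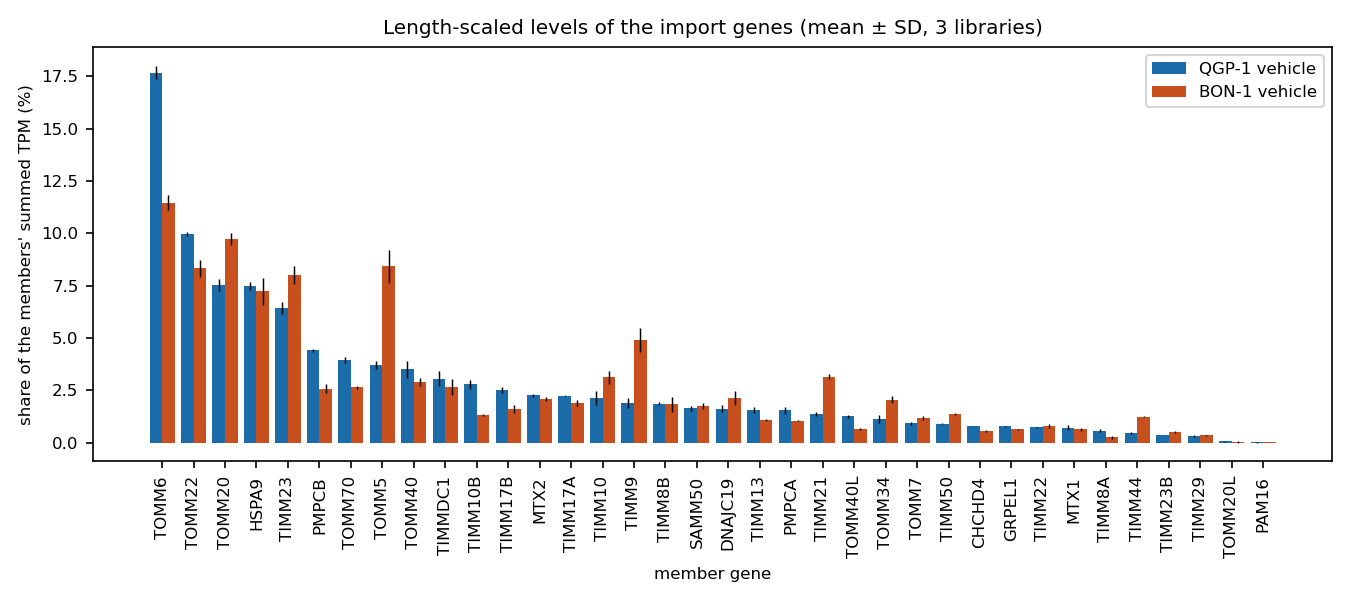
Share of each member in the members' summed TPM, in percent, for the 3 QGP-1 vehicle and 3 BON-1 vehicle libraries (bars, mean; lines, SD). TOMM6, whose exonic bases a same-strand gene covers in full, leads in both lines. TOMM5 holds 3.71% ± 0.184 in QGP-1 and 8.44% ± 0.788 in BON-1 cells.

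With DOX versus vehicle in QGP-1 cells, 14 of the 34 tested members were downregulated and 2 were upregulated. Among all 15089 genes tested in that line, 17.7% were called lower and 17.3% higher, or 35% in either direction. The members' median log2 fold change was -0.12, against -0.012 for all genes, and 28 of the 34 values were negative. In BON-1 cells 8 members were downregulated and 4 upregulated, where 18.3% of 14625 genes were called lower and 17% higher, or 35.3% in all. The BON-1 median was -0.062, against -0.010 for all genes, and 21 of the 34 values were negative. Summed over the members, the level was 1990 ± 49.1 CPM (SD, n = 3) in QGP-1 vehicle and 1783 ± 41.8 in QGP-1 DOX libraries, and 1805 ± 36.4 and 1734 ± 68.9 in the corresponding BON-1 groups. These directions are relative to the bulk of the transcriptome, because on uncentred TPM the QGP-1 split became 0 lower and 28 higher and the BON-1 split 0 and 0. Of all genes, uncentred log2(TPM + 1) called 0.862% lower and 86.8% higher in QGP-1, and 1.92% and 0.243% in BON-1 cells. On that scale the median of all genes itself moved by 0.59 in QGP-1 and -0.31 in BON-1 cells, and the RN7S RNAs held 79.1 to 80.5% of the summed TPM in QGP-1 vehicle and 71.4 to 75.6% in QGP-1 DOX libraries. In BON-1 cells these shares overlapped, at 51.2 to 66.1% with vehicle and 53.9 to 75.2% with DOX. TPM centred on each library's median, an alternative chosen after seeing the data, gave 13 lower and 2 higher in QGP-1 and 8 lower and 3 higher in BON-1 cells. Of all genes, that alternative called 28.7% lower and 17.9% higher in QGP-1, and 16.4% and 16% in BON-1 cells. The members' median minus that of all genes was -0.057 there in QGP-1 cells, against -0.107 in the main fit.

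The lines shared 8 called members. TOMM7, TIMMDC1, TIMM13, TIMM10, TIMM17B, TIMM17A and TOMM70 were downregulated in both, where 7.23% of the 13535 genes with a test in each line were, and TIMM10B was upregulated in both, where 6.88% were. A further 7 members (TIMM21, TOMM6, TIMM9, MTX1, PMPCB, SAMM50 and TOMM22) were called lower in QGP-1 and not in BON-1 cells, TOMM40 in BON-1 and not in QGP-1 cells, TIMM22 was higher in QGP-1, and CHCHD4, DNAJC19 and TIMM23B were higher in BON-1 cells. No member was called in opposite directions, and 14 were called in neither line. Of the 13535 genes, 9.57% were called lower in QGP-1 alone and 9.87% lower in BON-1 alone. Those called higher in QGP-1 alone made up 9.95%, and those higher in BON-1 alone 8.98%. Opposite calls made up 1.19% (higher in QGP-1) and 1.5% (higher in BON-1), and 44.8% were called in neither line.

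**Figure D2:**
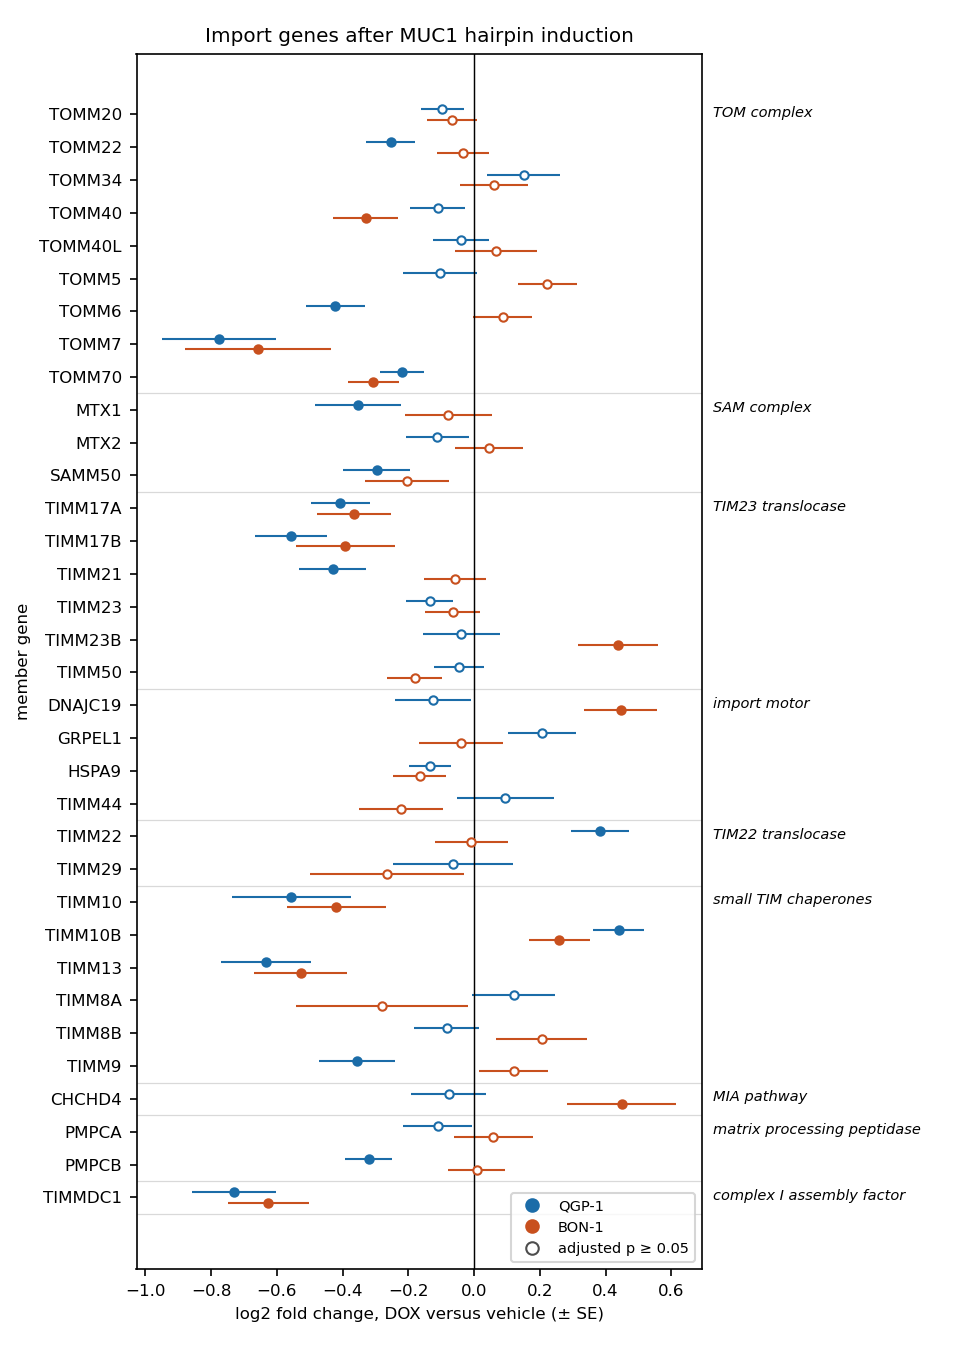
Log2 fold change with DOX versus vehicle (points) with its SE (lines) for the 34 tested members in QGP-1 (blue) and BON-1 (orange) cells, grouped by complex, with filled points at an adjusted p below 0.05. TOMM7, TIMM13, TIMM10, TIMM17A, TIMM17B, TOMM70 and TIMMDC1 lie left of 0 in both lines and TIMM10B lies right, whereas on uncentred TPM all of these but TOMM7 lie right in QGP-1 cells and TIMM10B flips to the left in BON-1 cells.

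In the TOM complex, 4 of 9 tested genes were lower in QGP-1 and 3 of 9 in BON-1 cells, and none was called higher. Of all genes, 17.7% were called lower and 17.3% higher in QGP-1, and 18.3% and 17% in BON-1 cells. TOMM7, a small subunit that modulates the stability of the gate (chr7:22812628-22822849, minus strand), changed most among them. It was at 5.03, 4.82 and 5.71 CPM in the QGP-1 vehicle libraries and at 3.12, 2.86 and 3.1 with DOX. In BON-1 cells the values were 6.72, 6.21 and 5.61 with vehicle and 5.02, 3.97 and 2.92 with DOX. The groups did not overlap in either line, and TOMM7 fell by 41.6% in QGP-1 (log2 fold change -0.78 ± 0.17, adjusted p = 0.00322) and by 36.6% in BON-1 cells (-0.66 ± 0.22, adjusted p = 0.0225). The BON-1 call was lost without vehicle replicate 1 or 2 or DOX replicate 3 (adjusted p up to 0.101).

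TOMM70, the receptor for carrier precursors, was at 184, 178 and 199.9 CPM with vehicle and 163, 159.7 and 160.5 with DOX in QGP-1 cells. Its BON-1 levels were 121, 114 and 117 with vehicle and 99.7, 88.3 and 98.7 with DOX. Every DOX library lay below every vehicle library of its line, with log2 fold changes of -0.22 ± 0.067, adjusted p = 0.02 in QGP-1 and -0.31 ± 0.079, adjusted p = 0.00301 in BON-1 cells. In QGP-1 cells the call ended without vehicle replicate 3 or DOX replicate 2 or 3 (adjusted p up to 0.0696). TOMM70 is also on a gene list that the study drew from these same libraries, so its direction is not independent of that list.

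The remaining TOM calls were each made in 1 line. TOMM6 was at 111, 115 and 122 CPM in QGP-1 vehicle libraries and 100.3, 80.1 and 79.3 with DOX (-0.42 ± 0.091, adjusted p = 0.00252). TOMM22 was at 124, 124 and 131 and 113, 96.9 and 107 (-0.25 ± 0.074, adjusted p = 0.0164), a call lost without DOX replicate 2 (adjusted p = 0.0992). For both genes no QGP-1 DOX library reached a vehicle library. TOMM40, the channel itself, was at 51.9, 45.7 and 45.6 CPM with vehicle and 39.4, 41.6 and 33.7 with DOX in BON-1 cells, again without overlap (-0.33 ± 0.099, adjusted p = 0.00987). That call was lost without vehicle replicate 1 (adjusted p = 0.0591). In QGP-1 cells TOMM40 ranged from 55.2 to 66.4 CPM with vehicle and from 54.5 to 58.5 with DOX, overlapping ranges (-0.11 ± 0.084, adjusted p = 0.333). TOMM20, TOMM5, TOMM34 and TOMM40L were not called in either line, with TOMM5 nearest in BON-1 cells (0.22 ± 0.090, adjusted p = 0.0546). TOMM40L, the paralog of the channel, was at 40.1, 37.9 and 37.8 CPM in QGP-1 vehicle, 40.7, 36.6 and 35.3 in QGP-1 DOX, 19.4, 16.7 and 19.6 in BON-1 vehicle and 19.5, 21.4 and 17.7 in BON-1 DOX libraries, overlapping within each line. TOMM34 is a cytosolic co-chaperone that is grouped with the gate here only by its name.

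The SAM complex inserts barrel proteins such as TOMM40 and the porins. Its channel SAMM50 was at 25.4, 27.8 and 30.8 CPM in QGP-1 vehicle and 24.2, 21 and 23.3 in QGP-1 DOX libraries (-0.30 ± 0.10, adjusted p = 0.0339), a call lost without vehicle replicate 2 or 3 or DOX replicate 2 or 3 (adjusted p up to 0.142). MTX1, or metaxin 1, was at 21.7, 19.5 and 16 CPM with vehicle and 16.8, 14.8 and 13 with DOX in QGP-1 cells. It was called lower although the groups overlapped (-0.35 ± 0.13, adjusted p = 0.0492), and not without vehicle replicate 1 or 2 or DOX replicate 2 or 3 (adjusted p up to 0.208). In BON-1 cells MTX1 was at 17.8, 15.9 and 14.6 and 14.3, 15.3 and 16.5 (-0.078 ± 0.13, adjusted p = 0.684). MTX2, its partner, was called in neither line, so the complex counted 2 of 3 genes lower in QGP-1 and 0 of 3 called in BON-1 cells. Of all genes, 17.7% were called lower in QGP-1, and 35.3% were called in either direction in BON-1 cells.

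MTX1 is a neighbor of the hairpin target on chromosome 1. It lies at chr1:155208695-155213824, plus strand (GRCh38, GENCODE v44), 15778 bases beyond MUC1 (chr1:155185824-155192916, minus strand), and THBS3, on the minus strand, begins within MTX1 and runs toward MUC1. MTX1 shares 17.3% of its exonic bases with an opposite-strand lncRNA, its largest such overlap, and no larger share with THBS3. Whether the counts used strand is not given in the sources used here. Of the other genes nearby, CLK2, a kinase of splicing factors, fell in BON-1 cells (-0.42 ± 0.11, adjusted p = 0.00253), against -0.14 ± 0.087, adjusted p = 0.227 in QGP-1 cells. THBS3, an extracellular matrix thrombospondin, was at 26.4, 26.6 and 23.2 CPM in BON-1 vehicle and 13.7, 12.5 and 11 in BON-1 DOX libraries (-1.05 ± 0.13, adjusted p = 2.45e-07). Its QGP-1 levels were 4.38, 6.19 and 6.02 and 5.12, 5.3 and 4.77, and this difference between the lines was itself called (-0.90 ± 0.21, adjusted p = 0.00348).

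Of the 6 genes of the TIM23 translocase, 3 fell in QGP-1 cells, while 2 fell and 1 rose in BON-1 cells. Of all genes, 17.7% fell in QGP-1 cells, while 18.3% fell and 17% rose in BON-1 cells. The called genes lower in both lines were the paralogs TIMM17A and TIMM17B, which line the translocation path with TIMM23. TIMM17A was at 35.5, 35.4 and 36.5 CPM in QGP-1 vehicle and 29.1, 27 and 24.9 in QGP-1 DOX libraries (-0.41 ± 0.089, adjusted p = 0.0028). In BON-1 cells it was at 26.2, 29.8 and 28.8 and 22.4, 20.01 and 24 (-0.36 ± 0.11, adjusted p = 0.0118), a call lost without vehicle replicate 2 or DOX replicate 2 (adjusted p up to 0.0623). All DOX libraries of a line were below all its vehicle libraries for both paralogs. TIMM17B was at 22.2, 23 and 26 and 17.9, 14.5 and 15.9 CPM in QGP-1 cells (-0.56 ± 0.11, adjusted p = 0.00139). The BON-1 values were 14, 16 and 12.2 and 12, 10.7 and 9.83 (-0.39 ± 0.15, adjusted p = 0.0427), and leaving out vehicle replicate 1 or 2 or DOX replicate 2 or 3 ended the call (adjusted p up to 0.207).

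TIMM21, which links the translocase to the TOM complex and to respiratory chain assembly, was at 20.5, 18.5 and 19.7 CPM with vehicle and 14.1, 13.9 and 15.6 with DOX in QGP-1 cells (-0.43 ± 0.10, adjusted p = 0.00475), without overlap. Its BON-1 levels overlapped (41.4 to 44.9 against 38.4 to 44.5 CPM, -0.059 ± 0.094, adjusted p = 0.667). The channel TIMM23 was called in neither line, at 81.6, 77 and 79.2 CPM in QGP-1 vehicle, 70.7, 69.5 and 76.2 in QGP-1 DOX, 98.6, 91.1 and 87.8 in BON-1 vehicle and 92.6, 93.5 and 80.8 in BON-1 DOX libraries (-0.14 ± 0.073, adjusted p = 0.165 and -0.066 ± 0.083, adjusted p = 0.578). Its near-identical copy TIMM23B was higher in BON-1 cells, at 16.3, 19.6 and 20.1 CPM with vehicle and 27.6, 22.9 and 25.7 with DOX (0.44 ± 0.12, adjusted p = 0.00602), and at 13.7, 15 and 15.2 and 13.1, 13.2 and 16.4 in QGP-1 cells (-0.039 ± 0.12, adjusted p = 0.832). The BON-1 call was lost without vehicle replicate 1 or DOX replicate 1 (adjusted p up to 0.0542). Both copies lie on chromosome 10, and since the treatment of reads that match several places is not given in the sources used here, the division of reads between them is uncertain. TIMM50, the presequence receptor of the inner membrane, was not called in either line.

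The import motor pulls chains into the matrix. None of its 4 tested genes was called lower in either line, and 1 was called higher in BON-1 cells. For comparison, lower calls over the whole transcriptome came to 17.7% (QGP-1) and 18.3% (BON-1), and higher calls to 17.3% and 17%. A set of 4 genes is too small to tell the motor from this background. The motor gene called higher was DNAJC19, a J-domain cofactor. It was at 26, 34.6 and 33.7 CPM in BON-1 vehicle and 46.2, 38.8 and 44 in BON-1 DOX libraries. The groups did not overlap, and DNAJC19 was 1.36 times its vehicle level (0.45 ± 0.11, adjusted p = 0.00231). The QGP-1 libraries, with 24.2, 22.9 and 29 with vehicle and 21.3, 22.1 and 26.4 with DOX, overlapped (-0.13 ± 0.11, adjusted p = 0.429). HSPA9, the chaperone that drives the motor, ranged from 271 to 289 CPM with vehicle and from 251 to 263 with DOX in QGP-1 cells (-0.13 ± 0.063, adjusted p = 0.115), and its BON-1 log2 fold change was -0.17 ± 0.081, adjusted p = 0.112. TIMM44, which tethers HSPA9 to the channel, and GRPEL1, its nucleotide exchange factor, were not called.

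The TIM22 pathway showed called changes in both directions. TIMM22, the carrier channel, was at 30.7, 29 and 30.4 CPM in QGP-1 vehicle and 42.7, 36.6 and 37.9 in QGP-1 DOX libraries, a rise of 30.3% without overlap (0.38 ± 0.089, adjusted p = 0.00421). In BON-1 cells it was at 34.3, 29.2 and 27.1 and 33.6, 30.2 and 27.2 (-0.0085 ± 0.11, adjusted p = 0.961), with overlap. Of the 6 small TIM chaperones that feed TIM22 and SAM, 3 were lower and 1 higher in QGP-1 cells, and 2 lower and 1 higher in BON-1 cells. Of all genes, 17.7% were lower and 17.3% higher in QGP-1, and 18.3% and 17% in BON-1 cells. TIMM13, which pairs with TIMM8A, was at 31.2, 33.1 and 28.9 CPM with vehicle and 15, 23.6 and 21.5 with DOX in QGP-1 cells (-0.63 ± 0.14, adjusted p = 0.00263). Its BON-1 levels were 21.3, 21 and 19.1 and 17.1, 14.6 and 11.3 (-0.53 ± 0.14, adjusted p = 0.00414). No library of TIMM13 overlapped between the groups, and its call held without any 1 library in both lines.

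TIMM10, a subunit of the carrier chaperone with TIMM9, was at 8.69, 11.1 and 8.56 CPM in QGP-1 vehicle and 8.32, 5.12 and 5.77 in QGP-1 DOX libraries (-0.56 ± 0.18, adjusted p = 0.0276). In BON-1 cells it was at 12.2, 14.7 and 12.3 and 9.35, 9.67 and 10.4 (-0.42 ± 0.15, adjusted p = 0.0302). The groups did not overlap in either line, though in QGP-1 cells the call ended without vehicle replicate 2 or DOX replicate 2 or 3 (adjusted p up to 0.141) and the BON-1 call without vehicle replicate 2 or DOX replicate 1 or 2 (up to 0.156). TIMM9 was at 19.7, 22.5 and 26.7 and 17.8, 17.5 and 18.6 CPM in QGP-1 cells (-0.36 ± 0.11, adjusted p = 0.0262), a call lost without vehicle replicate 2 or 3 or DOX replicate 1 or 2 (adjusted p up to 0.122). Its BON-1 levels overlapped, at 48.9, 62.4 and 56.1 with vehicle and 66.4, 50.7 and 66.1 with DOX (0.12 ± 0.10, adjusted p = 0.397).

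TIMM10B, which docks the chaperones onto TIM22, moved the other way. It was at 85.5, 84.9 and 77.7 CPM in QGP-1 vehicle and 120.1, 103 and 113 in QGP-1 DOX libraries, a rise of 35.6% (0.44 ± 0.077, adjusted p = 0.000636). In BON-1 cells it was at 35.2, 38.4 and 35.8 and 42, 43.4 and 46.4 (0.26 ± 0.093, adjusted p = 0.0306), where uncentred TPM turned the log2 difference to -0.096. Every DOX library exceeded every vehicle library of its line, but of the fits without 1 library the BON-1 call stood only in that without vehicle replicate 2 and was lost without vehicle replicate 1 or 3 or DOX replicate 1, 2 or 3 (adjusted p up to 0.106). TIMM8A, mutated in a deafness-dystonia syndrome, and its paralog TIMM8B were called in neither line. TIMM8A was at 8.69, 10.9 and 10.5 CPM in QGP-1 vehicle, 10.2, 11.4 and 11.1 in QGP-1 DOX, 4.18, 5.26 and 2.67 in BON-1 vehicle and 3.9, 3.16 and 3.07 in BON-1 DOX libraries. TIMM8B was at 17.1, 18.8 and 19.6, at 17.6, 17.2 and 17.6, at 13.7, 20.3 and 17.1 and at 21.7, 19 and 18.3 in the same order.

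CHCHD4, the oxidoreductase of the intermembrane space, was at 7.35, 7.8 and 8.17 CPM in BON-1 vehicle and 11, 9.16 and 11.8 in BON-1 DOX libraries. The groups did not overlap, and the gene was called higher (0.45 ± 0.17, adjusted p = 0.0352), but of the fits without 1 library the call stood only in that without DOX replicate 2 and was lost without vehicle replicate 1, 2 or 3 or DOX replicate 1 or 3 (adjusted p up to 0.132). In QGP-1 cells it was at 11.9, 11.7 and 12.8 and 10.7, 11.3 and 12.6 (-0.077 ± 0.11, adjusted p = 0.642). PMPCB, the catalytic subunit of the presequence peptidase, was at 183, 181 and 194 CPM with vehicle and 154, 137 and 155 with DOX in QGP-1 cells, without overlap (-0.32 ± 0.070, adjusted p = 0.00289). In BON-1 cells PMPCB was at 109, 93.5 and 103 and 107, 90.2 and 113 (0.0077 ± 0.087, adjusted p = 0.955). PMPCA, its substrate-binding partner, was called in neither line.

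TIMMDC1 carries the family name but acts in complex I assembly. It was at 44, 41.1 and 53.8 CPM in QGP-1 vehicle and 23, 28 and 32.8 in QGP-1 DOX libraries. The BON-1 values were 31.7, 40.7 and 40.4 and 27.9, 25.6 and 20.1. Without overlap in either line, it fell by 39.8% in QGP-1 (-0.73 ± 0.13, adjusted p = 0.000595) and by 35.2% in BON-1 cells (-0.63 ± 0.12, adjusted p = 0.000217), and both calls held without any 1 library. Of the 34 tested members, 17 had vehicle and DOX groups that did not overlap in QGP-1 and 15 in BON-1 cells, where 46.8% and 45.9% of all tested genes did not.

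**Figure D3:**
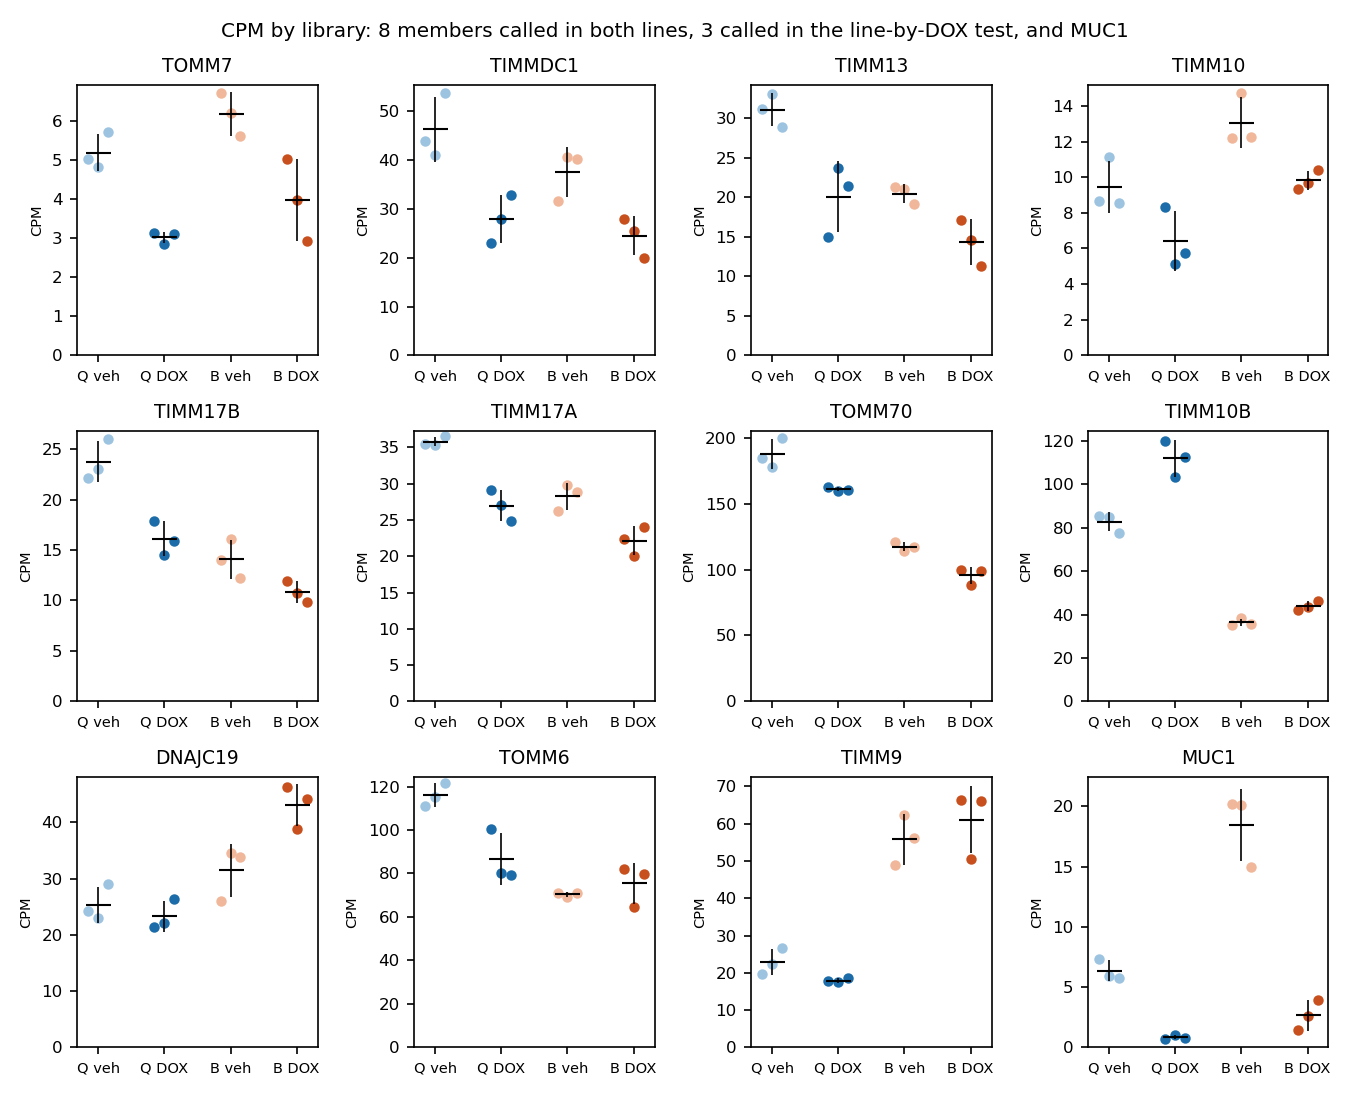
CPM in each library (points) with the group mean and SD (bars) for the 8 members called in both lines, the 3 whose DOX response differed between the lines, and MUC1 (Q, QGP-1; B, BON-1; veh, vehicle). TOMM7, TIMMDC1, TIMM13, TIMM10, TIMM17B, TIMM17A and TOMM70 are lower in every DOX library than in every vehicle library of their line and TIMM10B is higher on the CPM scale, while on uncentred TPM the QGP-1 differences of all these lower genes but TOMM7 and the BON-1 difference of TIMM10B flip in sign.

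Several genes share exonic bases with an opposite-strand gene in GENCODE v44, which bears on counts whose strand setting is not given in the sources used here. The largest share with a single such gene was 29.4% for TIMMDC1 (with CD80), 30.1% for TIMM8B (NKAPD1) and 20.1% for TIMM13 (TMPRSS9). It was 20.1% for TOMM40L (NR1I3), 15.5% for TIMM17B (PQBP1) and 12.3% for TIMM9 (TOMM20L). TOMM6 is covered by a same-strand gene over all of its exonic bases. TIMM23B shares 29.9% with the same-strand TIMM23B-AGAP6. With another same-strand protein-coding gene, TOMM5 shares 14.4% and TIMM10B 13.2%. In addition, 13 of the 36 members have 38 named pseudogenes, among them DNAJC19, TOMM22, TOMM20, TOMM40 and CHCHD4. The part of shared reads in these values was not tested.

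Promoters of the members called in both lines are shown because their calls were shared by the lines. RefSeq (GRCh38.p14) gave a window from 250 bases before to 50 after the start for 33 members and 35116 genes in all. The ETS-type motif CCGGAAGT, searched on both strands, was in 8 of the 33 windows (24.2%), against 4.14% of all windows and 6.41% of the 16971 windows of genes tested in either line. The NRF1-type motif was in 7 of 33 (21.2%), against 5.78% and 8.76%. The E-box CACGTG was in 4 of 33 (12.1%), against 7.26% and 8.93%, TGATGNAA, an amino acid response type, in 2 of 33 (6.06%), against 3.62% and 2.16%, and the heat shock element in 0 of 33, against 0.49% and 0.354%. Of the 7 members lower in both lines, TIMM10, TIMMDC1 and TOMM70 held the ETS-type motif, TOMM7 the NRF1-type and TIMM10 also the E-box, and TIMM10B, higher in both, held the ETS-type motif too. Stretches of 80 bases upstream of the start, 5′ to 3′ on the gene's strand, follow for them with the ETS-type or, for TOMM7, the NRF1-type match in capitals. They are chr7:22822850-22822929 (minus strand) for TOMM7, chr3:119498388-119498467 (plus strand) for TIMMDC1, chr11:57530755-57530834 (minus strand) for TIMM10, chr3:100401150-100401229 (minus strand) for TOMM70 and chr11:6481419-6481498 (plus strand) for TIMM10B.
TOMM7: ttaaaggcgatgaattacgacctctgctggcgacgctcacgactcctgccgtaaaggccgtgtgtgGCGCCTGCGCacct
TIMMDC1: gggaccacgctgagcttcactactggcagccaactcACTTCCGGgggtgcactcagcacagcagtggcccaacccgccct
TIMM10: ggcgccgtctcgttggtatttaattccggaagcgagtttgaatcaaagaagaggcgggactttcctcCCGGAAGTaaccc
TOMM70: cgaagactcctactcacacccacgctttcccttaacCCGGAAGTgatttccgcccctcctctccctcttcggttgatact
TIMM10B: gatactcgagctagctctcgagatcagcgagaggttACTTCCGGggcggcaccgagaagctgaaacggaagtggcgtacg
The match begins 14 bases before the start in TOMM7, 13 in TIMM10, 46 in TIMM10B, 104 in TOMM70 and 123 in TIMMDC1, whose window holds another match outside the stretch. These matches are letters in the reference and do not show that a factor binds there.

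The response to DOX differed between the lines for 3 members. In the interaction of cell line and DOX, BON-1 minus QGP-1, TOMM6 gave 0.52 ± 0.13, adjusted p = 0.00931, DNAJC19 0.58 ± 0.17, adjusted p = 0.021 and TIMM9 0.49 ± 0.17, adjusted p = 0.0482. All 3 were higher in BON-1 relative to QGP-1, where 8.8% of 16598 genes were called higher and 7.92% lower, or 16.7% in all. For TOMM6 the QGP-1 libraries fell while the BON-1 libraries were at 71.2, 69.2 and 71.2 CPM with vehicle and 81.9, 64.7 and 79.9 with DOX (0.088 ± 0.090, adjusted p = 0.481). TOMM6, whose exonic bases a same-strand gene covers in full, kept its call without any 1 of the 12 libraries. DNAJC19 lost it without QGP-1 vehicle replicate 3 or QGP-1 DOX replicate 1 or 2 or BON-1 vehicle replicate 1 or BON-1 DOX replicate 1 or 3 (adjusted p up to 0.113), and TIMM9 without QGP-1 vehicle replicate 2 or 3 or QGP-1 DOX replicate 1, 2 or 3 or BON-1 vehicle replicate 1 or 3 or BON-1 DOX replicate 1 or 3 (up to 0.188). Of the members called in 1 line alone, PMPCB (0.34 ± 0.12, adjusted p = 0.0541), TIMM21 (0.38 ± 0.14, adjusted p = 0.0584), TIMM23B (0.49 ± 0.18, adjusted p = 0.0595), CHCHD4 (0.54 ± 0.20, adjusted p = 0.0606), TIMM22 (-0.38 ± 0.15, adjusted p = 0.083), TOMM22 (0.23 ± 0.11, adjusted p = 0.154), TOMM40 (-0.21 ± 0.13, adjusted p = 0.316), MTX1 (0.28 ± 0.19, adjusted p = 0.337) and SAMM50 (0.10 ± 0.18, adjusted p = 0.77) were not shown to differ between the lines. DESeq2 called 7 members higher in the interaction, adding TIMM21, CHCHD4, PMPCB and TIMM23B to the same 3.

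With vehicle alone, the lines differed in 26 of the 34 tested members, 15 lower and 11 higher in BON-1 than in QGP-1 cells. Of all 15835 genes, 38% were called lower and 39.4% higher, or 77.5% in all, so the members' share was near that of the transcriptome. Line, medium and the deeper sequencing of QGP-1 cannot be told apart in this comparison. TIMM8A was at 8.69, 10.9 and 10.5 CPM in QGP-1 and 4.18, 5.26 and 2.67 in BON-1 cells, 2.4-fold lower in BON-1 (-1.26 ± 0.20, adjusted p = 7.9e-06). TIMM10B was at 85.5, 84.9 and 77.7 and 35.2, 38.4 and 35.8 (-1.14 ± 0.082, adjusted p = 7.49e-11), TOMM40L at 40.1, 37.9 and 37.8 and 19.4, 16.7 and 19.6 (-1.02 ± 0.098, adjusted p = 8.06e-09), and PMPCB at 183, 181 and 194 and 109, 93.5 and 103 (-0.83 ± 0.073, adjusted p = 2.07e-09). None of these 4 overlapped between the lines.

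The members highest in BON-1 relative to QGP-1 cells were the motor tether TIMM44, the chaperone TIMM9, TIMM21 and TOMM5. TIMM44 was at 9.39, 8.21 and 9.3 CPM in QGP-1 and 22.5, 23.5 and 22.6 in BON-1 vehicle libraries, 2.62-fold higher in BON-1 (1.39 ± 0.12, adjusted p = 1.14e-09). TIMM9 was at 19.7, 22.5 and 26.7 and 48.9, 62.4 and 56.1 (1.32 ± 0.12, adjusted p = 2.48e-09), TIMM21 at 20.5, 18.5 and 19.7 and 44.9, 42 and 41.4 (1.17 ± 0.092, adjusted p = 3.74e-10), and TOMM5, the small TOM subunit, at 24.6, 26.5 and 28.7 and 51.5, 62.7 and 55.6 (1.13 ± 0.099, adjusted p = 1.96e-09), all without overlap. By complex, all 6 TIM23 genes were called, 4 higher and 2 lower, whereas none of the 3 SAM genes and neither TIM22 gene was. Of all genes, 38% were called lower and 39.4% higher in this comparison. Among TOM genes 5 were lower and 3 higher. Both peptidase genes and CHCHD4 were lower. The call of DNAJC19 was lost without QGP-1 vehicle replicate 2 or BON-1 vehicle replicate 2 or 3 (adjusted p up to 0.12), that of TIMMDC1 without QGP-1 vehicle replicate 3 or BON-1 vehicle replicate 1 (up to 0.232), and that of TIMM23B without BON-1 vehicle replicate 3 (0.0541).

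**Figure D4:**
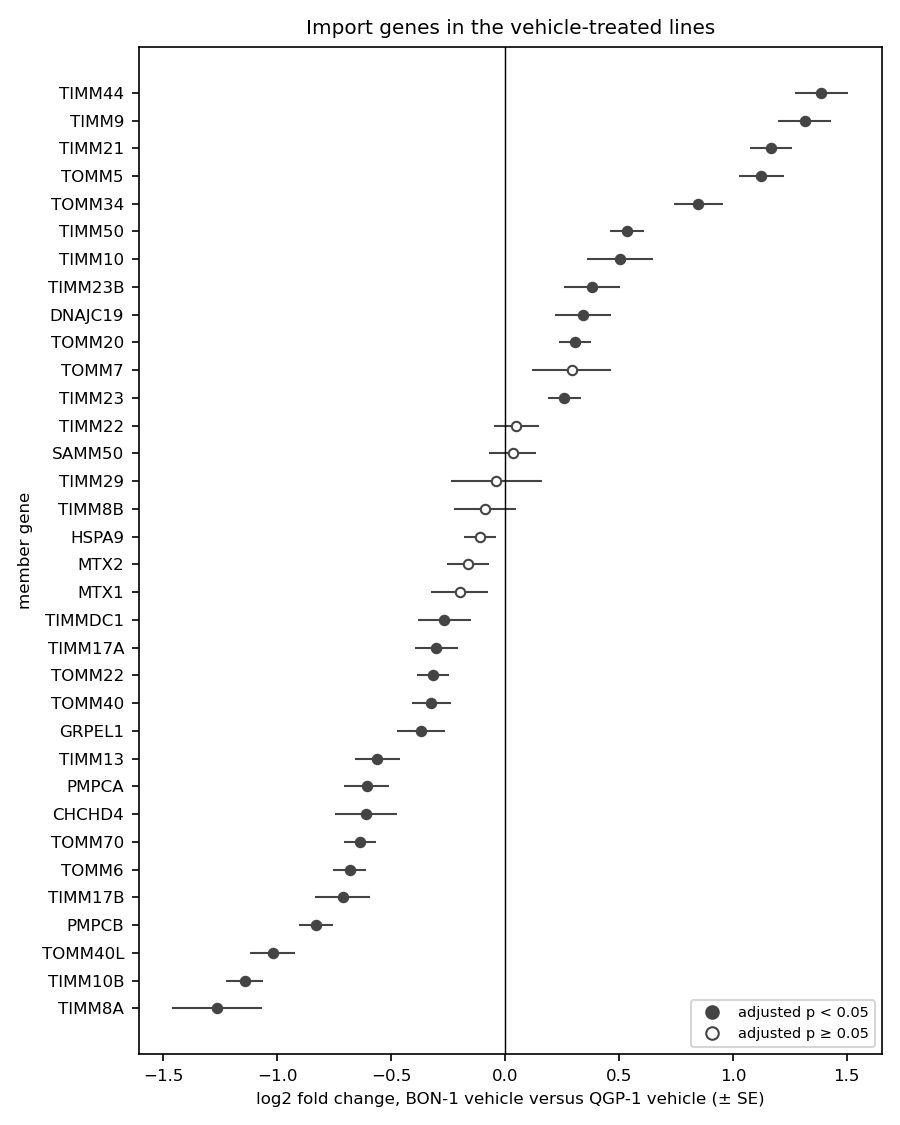
Log2 fold change of BON-1 vehicle versus QGP-1 vehicle libraries (points) with its SE (lines) for the 34 tested members, ordered by value, with filled points at an adjusted p below 0.05. The values run from -1.26 for TIMM8A to 1.39 for TIMM44, and the SAM genes MTX1, MTX2 and SAMM50 are open points.

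Paralogs were compared as ratios of TPM within a library, which cancel its scaling. The TIMM17A to TIMM17B ratio was 0.896 ± 0.0603 (SD, n = 3) in QGP-1 vehicle, 0.995 ± 0.0956 in QGP-1 DOX, 1.2 ± 0.167 in BON-1 vehicle and 1.22 ± 0.195 in BON-1 DOX libraries. TOMM40 exceeded TOMM40L 2.75 ± 0.195 times in QGP-1 vehicle, 2.64 ± 0.273 in QGP-1 DOX, 4.47 ± 0.385 in BON-1 vehicle and 3.39 ± 0.109 in BON-1 DOX libraries. TIMM8A stood at 0.305 ± 0.0201 of TIMM8B in QGP-1 vehicle and at 0.136 ± 0.0433 in BON-1 vehicle libraries. TIMM23 exceeded TIMM23B 17.5 ± 1.43 times and 16.2 ± 2.87 times in the same groups, and 11.4 ± 1.59 times in BON-1 DOX libraries.

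Among lists of related genes, the small cysteine-rich substrates of CHCHD4 stood lowest in QGP-1 cells. Of 12 such genes, 9 were lower and 1 higher in QGP-1 cells (median log2 fold change -0.46), and 4 were lower and none higher in BON-1 cells (median -0.15), beside medians of -0.012 and -0.010 for all genes. Of all genes, 17.7% were called lower and 17.3% higher in QGP-1, and 18.3% and 17% in BON-1 cells. COX17, a copper chaperone for cytochrome c oxidase, was at 6.27, 6.55 and 4.39 CPM in QGP-1 vehicle and 2.48, 2.91 and 3.24 in QGP-1 DOX libraries (-0.99 ± 0.20, adjusted p = 0.0017), and at 4.49, 5.43 and 3.2 and 5.08, 4.38 and 3.93 in BON-1 cells (0.0086 ± 0.24, adjusted p = 0.982). This difference between the lines was called (1.01 ± 0.32, adjusted p = 0.0318). NDUFB7, a complex I subunit, fell in both (-0.95 ± 0.13, adjusted p = 9.68e-05 in QGP-1 and -0.77 ± 0.18, adjusted p = 0.00111 in BON-1 cells). CMC1, a cytochrome c oxidase biogenesis factor, fell in QGP-1 cells (-0.86 ± 0.11, adjusted p = 4.72e-05), against -0.015 ± 0.15, adjusted p = 0.951 in BON-1 and an interaction of 0.86 ± 0.18, adjusted p = 0.00158. COX6B1, an oxidase subunit, fell in both (-0.57 ± 0.11, adjusted p = 0.000923 and -0.33 ± 0.081, adjusted p = 0.00182). The gene called higher in QGP-1 cells, named after its value was seen, was COX19 (0.50 ± 0.12, adjusted p = 0.00527).

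**Figure D5:**
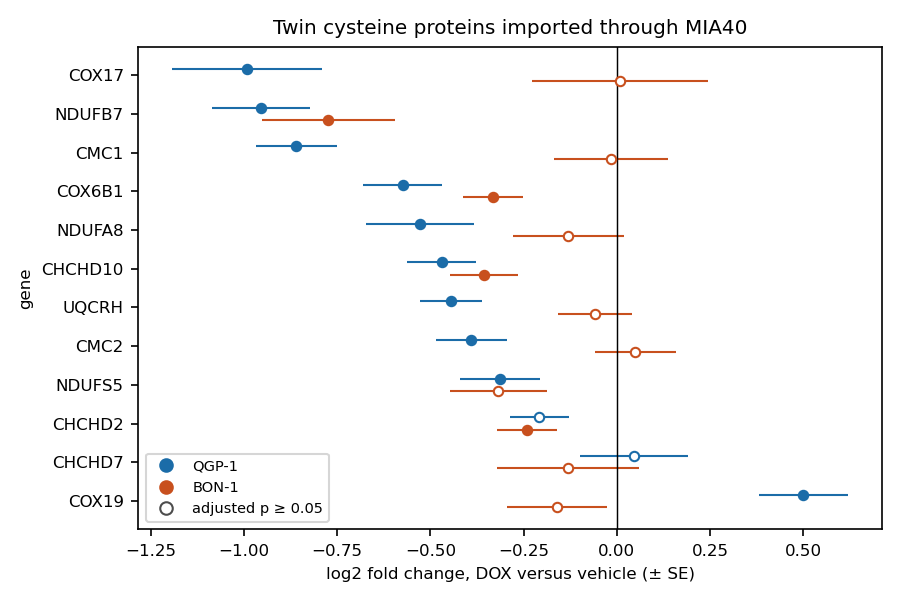
Log2 fold change with DOX versus vehicle (points) with its SE (lines) for 12 substrates of CHCHD4 in QGP-1 (blue) and BON-1 (orange) cells, with filled points at an adjusted p below 0.05. COX17, NDUFB7 and CMC1 are the lowest in QGP-1 cells, and COX17 and CMC1 lie near 0 in BON-1 cells.

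Partners of the import machinery outside the membership rule counted 1 lower and 2 higher of 11 in QGP-1, and 2 lower and 3 higher of 12 in BON-1 cells. The shares over all genes were 17.7% lower and 17.3% higher in QGP-1, and 18.3% and 17% in BON-1 cells. ROMO1, a small inner membrane protein of the TIM23 translocase, fell in QGP-1 cells, from 10.1, 11.5 and 15.3 CPM with vehicle to 9.003, 6.37 and 6.03 with DOX (-0.78 ± 0.18, adjusted p = 0.00383). In BON-1 cells ROMO1 was at 27.7, 31.5 and 25 and 35.4, 27.3 and 30.3, and the interaction was called (0.93 ± 0.22, adjusted p = 0.0054). DNAJC15, the paralog of DNAJC19, had 0 counts in all 3 QGP-1 vehicle libraries and 0 to 1 with DOX, where a count of 0 allows up to 3 counts in a library, whereas BON-1 cells had 37.9, 37 and 37.8 CPM with vehicle and 45.1, 47.7 and 54.6 with DOX (0.38 ± 0.093, adjusted p = 0.0021). MTX3, a metaxin relative, rose in BON-1 cells (0.53 ± 0.096, adjusted p = 8.59e-05). DNAJA1, a cytosolic chaperone for precursors, rose in QGP-1 (0.26 ± 0.068, adjusted p = 0.00851) and fell in BON-1 cells (-0.35 ± 0.084, adjusted p = 0.00169), a difference that was called (-0.60 ± 0.12, adjusted p = 0.000964).

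Genes of the SLC25 carrier family, most of which encode inner membrane carriers that TIM22 inserts, counted 6 lower and 3 higher of 20 in QGP-1, and 3 lower and 6 higher in BON-1 cells. For each list in this paragraph, the shares over all genes were 17.7% lower and 17.3% higher in QGP-1, and 18.3% and 17% in BON-1 cells. SLC25A1, the citrate carrier, fell in QGP-1 (-0.56 ± 0.11, adjusted p = 0.00146) and SLC25A46, a family member of the outer membrane and so not a TIM22 substrate, rose in BON-1 cells (0.55 ± 0.084, adjusted p = 6.92e-06). SLC25A22, a glutamate carrier, fell in BON-1 (-0.64 ± 0.15, adjusted p = 0.0016) and SLC25A39, a glutathione carrier, fell in both lines (-0.46 ± 0.065, adjusted p = 0.000107 and -0.35 ± 0.092, adjusted p = 0.0036). Genes of presequence processing and quality control counted 2 lower and 2 higher of 12 in each line. In both, the presequence peptidase PITRM1 rose (0.39 ± 0.065, adjusted p = 0.000397 and 0.40 ± 0.076, adjusted p = 0.000122) and the inner membrane peptidase IMMP1L fell (-0.65 ± 0.12, adjusted p = 0.000748 and -0.48 ± 0.15, adjusted p = 0.0123). The cristae-organizing MICOS complex had 2 of 7 genes lower in each line, APOO (-0.78 ± 0.11, adjusted p = 8.54e-05 and -0.44 ± 0.14, adjusted p = 0.0147) and MINOS1 (-0.72 ± 0.13, adjusted p = 0.000576 and -0.63 ± 0.14, adjusted p = 0.000577), and 1 higher in BON-1 cells, APOOL (0.40 ± 0.091, adjusted p = 0.000923). Of the 3 porins, which the SAM complex inserts, VDAC3 fell in both lines (-0.41 ± 0.092, adjusted p = 0.00309 and -0.32 ± 0.082, adjusted p = 0.00351) and VDAC1 rose in QGP-1 cells (0.26 ± 0.063, adjusted p = 0.00574).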

How the data were processed

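RNA-seq libraries (TruSeq Stranded mRNA) of QGP-1 and BON-1 cells with vehicle or DOX, 3 in each of 4 groups, were grouped by their labels. The authors aligned reads with STAR to GRCh38 (hg38) and deposited raw gene counts for each line. They also deposited TPM, which are counts per gene length scaled to each library's total. DESeq2 is named in the submitters' processing notes. Tool versions, the counting program, its strand setting and its treatment of reads with several matches are not given in the sources used here. The 7 days of treatment come from the study's text.

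Each line was tested with edgeR 4.0.16 in R 4.3.3 (filterByExpr, TMM, quasi-likelihood test), with Benjamini-Hochberg adjustment over all genes tested and a threshold of 0.05. The interaction used all 12 libraries, and vehicle libraries were compared between lines in a fit of their own. Alternatives used DESeq2 1.42.0, limma 3.58.1 on log2(TPM + 1) and log2(TPM + 0.1) of genes whose mean TPM reached 1, other scalings, filters and thresholds, a replicate block, and each library left out in turn. The membership rule reads symbols alone, but the choice of this gene family and of the related lists was made with earlier results of these data known. Named with values in every library were the 4 called members at each end of each comparison, those called in the interaction, the channels and their paralogs, TIMM17A and TIMM17B, TIMM8A and TIMM8B, TOMM70, MTX1 and MUC1, and other called members were added after their values were seen. Of each related list, at most 4 called genes with the largest absolute log2 fold change were named. An exact permutation test of 3 against 3 libraries cannot go below p = 0.1, so none was used. The scripts were tested on simulated data. Depth was 15981954 to 50525926 counts per library, and replicates differed by more than sampling noise (chi-square per gene 5.92 to 30.0). Figures were drawn with matplotlib 3.10.9.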

Additional observations from a re-analysis of the deposited data

Results flagged for a closer look

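The test of the interaction between cell line and DOX found a different response in the lines for 3 members (edgeR's quasi-likelihood test, adjusted over all genes). For TOMM6 the response in BON-1 minus that in QGP-1 cells was 0.52 ± 0.13 on the log2 scale (SE, adjusted p = 0.00931). A same-strand gene covers all exonic bases of TOMM6, and the part of shared reads was not tested. For DNAJC19 it was 0.58 ± 0.17 (adjusted p = 0.021), and for TIMM9 0.49 ± 0.17 (adjusted p = 0.0482). Of the 34 tested members 8.82% were called higher, near the 8.8% of all 16598 genes, of which 7.92% were called lower. In the 12 fits without 1 library, TOMM6 kept its call in 12, DNAJC19 in 6 and TIMM9 in 3.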

How the results depend on the processing

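Leaving out each library in turn gave 8 to 13 members lower and 2 to 3 higher in QGP-1 cells, 4 to 9 lower and 1 to 4 higher in BON-1 cells, 0 to 1 lower and 1 to 5 higher in the interaction, and 15 to 15 lower and 9 to 11 higher between the vehicle groups. QGP-1 counted 8 lower without DOX replicate 2. BON-1 counted 5 lower without vehicle replicate 1 and 4 without vehicle replicate 2, and 1 higher without vehicle replicate 1 or DOX replicate 1 and 2 higher without vehicle replicate 3 or DOX replicate 3. The interaction counted 1 higher without QGP-1 vehicle replicate 3, QGP-1 DOX replicate 1 or 2, BON-1 vehicle replicate 1 or BON-1 DOX replicate 1, 5 higher without BON-1 DOX replicate 2, and 1 lower without BON-1 vehicle replicate 3 or BON-1 DOX replicate 1. At an adjusted p below 0.01, QGP-1 counted 8 lower, BON-1 4 lower and 2 higher, and the interaction 1 higher. Without TMM, BON-1 counted 2 higher and the interaction 1 lower and 1 higher. The interaction counted 7 higher with DESeq2 and 5 with at least 10 counts in every library. With a minimum absolute log2 fold change of 1, 3 were lower and 4 higher between the vehicle groups. Where no construction of the alternative shows it, the cause was not tested. The replicate block gave 14 lower and 2 higher in QGP-1, 8 and 4 in BON-1, 0 and 3 in the interaction, and 15 and 11 between the vehicle groups. In deviations from the group mean, same-numbered vehicle and DOX libraries correlated at -0.068 to 0.113 within the lines. Same-numbered vehicle libraries of the 2 lines correlated at 0.044 to 0.141, and each matched its own number best. With 3 libraries per group these values cannot decide whether the numbers pair libraries. On uncentred TPM, QGP-1 counted 0 lower and 28 higher with either pseudocount and BON-1 0 and 0. Of all genes, 86.8% and 86.7% were called higher in QGP-1 cells with pseudocounts of 1 and 0.1, and 0.862% and 0.852% lower. In BON-1 cells these shares were 0.243% and 0.259% higher, and 1.92% and 2.01% lower. The log2 differences that turned in members called on either scale were, with pseudocounts of 1 and 0.1, in QGP-1 cells 0.53 and 0.64 for CHCHD4, 0.55 and 0.61 for DNAJC19, 0.59 and 0.60 for HSPA9, 0.29 and 0.37 for MTX1, 0.57 and 0.62 for MTX2, 0.55 and 0.62 for PMPCA, 0.40 and 0.41 for PMPCB, 0.39 and 0.44 for SAMM50, 0.14 and 0.15 for TIMM10, 0.078 and 0.083 for TIMM13, 0.30 and 0.33 for TIMM17A, 0.16 and 0.18 for TIMM17B, 0.26 and 0.30 for TIMM21, 0.58 and 0.60 for TIMM23, 0.46 and 0.66 for TIMM23B, 0.43 and 0.64 for TIMM29, 0.57 and 0.68 for TIMM50, 0.59 and 0.65 for TIMM8B, 0.35 and 0.39 for TIMM9, 0.0054 and 0.0036 for TIMMDC1, 0.63 and 0.64 for TOMM20, 0.47 and 0.48 for TOMM22, 0.60 and 0.63 for TOMM40, 0.60 and 0.69 for TOMM40L, 0.60 and 0.62 for TOMM5, 0.30 and 0.31 for TOMM6, 0.50 and 0.52 for TOMM70, and in BON-1 cells -0.096 and -0.11 for TIMM10B. A further 9 BON-1 members, called on neither scale, also turned from positive to negative, so that of 13 positive members CHCHD4, DNAJC19 and TIMM23B stayed positive. Of the 28 negative QGP-1 members TOMM7 stayed negative. TOMM20L and PAM16, with at most 13 and 8 counts in a library, were below the filter on low counts and not tested.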
